A study of Mus musculus with 14 samples.

Results

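Collagens, other matrix proteins and genes of fibroblasts were followed through Lewis lung carcinoma tumors and through myeloid cells sorted from such tumors. The set was a list of 39 gene symbols, and members were the rows of the deposited tables that carry one of those symbols. Of the 39 symbols, 38 were found in both tables among 12924 genes each, and Loxl2 was not matched. RNA sequencing covered 14 libraries. The tumors grew for 14 days from LLC, a transplantable cell line of Lewis lung carcinoma, in the flanks of p110g-/- mice, which lack PI3K gamma, or of wild-type (WT) mice. The mice of both genotypes were C57BL/6, and the loss of PI3K gamma was in the host, not in the implanted line. The groups were 4 libraries of p110g-/- tumor-associated macrophages (TAM), 4 of WT TAM, 3 of p110g-/- whole tumor and 3 of WT whole tumor. TAM were CD11b+Gr1- cells sorted by flow cytometry, 1000000 cells per library, and whole tumor libraries came from 30 mg pieces. No label says that each library came from its own mouse. The p-values therefore stand against the spread between libraries, which may be technical.

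Fibrillar collagens form the cables of connective tissue, type IV collagen, laminins and nidogen form the sheets that underlie blood vessels and epithelia, and small proteoglycans and glycoproteins bind both. In tumors most of this matrix is made by fibroblasts and by the mural cells that wrap vessels, while macrophages are known to make a few matrix proteins of their own, fibronectin among them. Prolyl and lysyl modification, folding by the collagen chaperone Serpinh1 and crosslinking by the lysyl oxidases come before a collagen fibre is mature.

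Col4a1 and Col4a2 encode the chains that join in type IV collagen, and their promoters are shown because the genes share a start region. Their levels moved together in the TAM libraries, but so did those of most members, so that trait is not particular to the pair. In RefSeq's GRCm38.p6 table, their annotated starts lie 21 bases apart on opposite strands of chromosome 8, so that the first bases of the genes overlap. Whether reads were counted by strand is not stated in the sources at hand, so reads in those bases could belong to either gene. The windows run from 250 bases before to 50 bases after each start, chr8:11312777-11313076 on the minus strand for Col4a1 and chr8:11312555-11312854 on the plus strand for Col4a2, and 78 bases belong to both. Col23a1 (chr11:51289670-51289969, plus strand) and Lrrc15 (chr16:30283205-30283504, minus strand) are shown because they passed the test in the whole tumors and, with same-numbered libraries compared, in the TAM. Capitals mark GGGCGG (the GC box), CCAAT (the CCAAT box) and TGANTCA (the AP-1 site), read on both strands.
Col4a1: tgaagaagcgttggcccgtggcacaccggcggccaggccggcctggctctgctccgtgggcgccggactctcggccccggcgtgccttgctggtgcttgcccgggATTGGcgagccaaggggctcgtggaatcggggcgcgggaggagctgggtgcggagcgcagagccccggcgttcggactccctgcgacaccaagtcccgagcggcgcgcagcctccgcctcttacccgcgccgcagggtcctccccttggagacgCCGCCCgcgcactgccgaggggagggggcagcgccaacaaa
Col4a2: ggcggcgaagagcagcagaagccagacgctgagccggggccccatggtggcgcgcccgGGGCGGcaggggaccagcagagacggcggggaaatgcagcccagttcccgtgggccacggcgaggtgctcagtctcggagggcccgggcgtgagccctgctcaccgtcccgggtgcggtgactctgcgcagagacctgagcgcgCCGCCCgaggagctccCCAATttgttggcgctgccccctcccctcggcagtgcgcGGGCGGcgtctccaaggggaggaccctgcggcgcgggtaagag
Col23a1: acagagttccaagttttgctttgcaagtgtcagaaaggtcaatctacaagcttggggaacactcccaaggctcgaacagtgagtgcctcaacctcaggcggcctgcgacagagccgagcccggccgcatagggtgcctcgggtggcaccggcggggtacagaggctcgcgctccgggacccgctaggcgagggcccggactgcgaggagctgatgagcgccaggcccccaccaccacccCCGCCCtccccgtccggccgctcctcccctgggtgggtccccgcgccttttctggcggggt
Lrrc15: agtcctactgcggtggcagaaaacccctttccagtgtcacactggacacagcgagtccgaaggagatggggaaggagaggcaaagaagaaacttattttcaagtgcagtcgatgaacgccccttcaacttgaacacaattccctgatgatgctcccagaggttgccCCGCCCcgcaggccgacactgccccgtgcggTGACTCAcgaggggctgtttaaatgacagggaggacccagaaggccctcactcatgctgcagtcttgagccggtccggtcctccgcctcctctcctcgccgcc

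RefSeq's promoter table held 30 promoters of 26 members, among 32851 promoters of the same length. GGGCGG was found in 19 of the 30, 63.3%, against 35.7% of all promoters. CCAAT was found in 30% of them against 37.4% of all, TATAAA in 16.7% against 13.6% and TGANTCA in 6.67% against 7.81%. The CArG box, the sequence bound by serum response factor, was found in none of the 30 and in 1.63% of all promoters. The motifs searched do not overlap in the sequences printed above. Several members also lie side by side on a chromosome, namely Col3a1 and Col5a2, Col6a2 and Col6a1, and Dcn and Lum, with gaps of 24.6, 85.2 and 47.3 kb.

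The deposited values are whole numbers, called normalized counts here. A step analysis of the low values put the depth at 19.7 to 40.2 M reads in genes for p110g-/- TAM, 26.8 to 40.7 M for WT TAM, 32.1 to 43.4 M for p110g-/- tumors and 41.5 to 44.6 M for WT tumors. Pik3cg, which encodes p110 gamma, had 2203, 2211, 1210 and 1401 normalized counts in p110g-/- TAM, against 3745, 4477, 3070 and 2748 in WT TAM. In whole tumors it had 242, 279 and 417 normalized counts with p110g-/- hosts, against 487, 616 and 527 with WT hosts. It was lower in every p110g-/- library than in any WT library of its kind, but not absent. Macrophage markers summed to 33505 to 36636 counts per 1000000 (CPM, the share of a library's total) in p110g-/- TAM and 25438 to 31420 CPM in WT TAM, against 5740 to 9122 CPM over the whole tumors, so the sorted cells carried the markers of the name they were given. Most of the TAM sum was 1 gene, Lyz2, with 712193 to 905943 normalized counts in p110g-/- TAM and 471157 to 662600 in WT TAM. The higher p110g-/- sum therefore does not speak for macrophage markers as a group. Mitochondrial genes took 2.73, 3.21, 9.01 and 14.4% of the total in p110g-/- TAM libraries 1 to 4, and 2.51, 3.06, 7.70 and 9.59% in WT TAM libraries 1 to 4.

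In whole tumors the matrix was led by Col3a1, the chain of type III collagen found in loose connective tissue. Per kilobase of its longest protein-coding transcript, Col3a1 reached 1048 CPM per kb in p110g-/- tumors and 1010 in WT tumors. Fibronectin (Fn1) came next at 420 and 537 CPM per kb in p110g-/- and WT tumors, and decorin (Dcn), a proteoglycan that binds collagen fibrils, followed at 384 and 377. The type I collagen chain Col1a1, the main collagen of dense scar, lay far lower, and Col3a1 exceeded it 17.0-fold per kb in p110g-/- tumors and 18.1-fold in WT tumors. Col23a1, a membrane-spanning collagen, was the lowest member of both tumor groups, at 0.783 CPM per kb in p110g-/- and 0.366 in WT tumors.

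In the sorted cells the order was different. Fn1 had 888 CPM per kb in p110g-/- TAM and 775 in WT TAM, and Thbs1, which encodes thrombospondin 1, an activator of latent TGF-beta, had 309 and 291. On the mean of the libraries, both exceeded their level in whole tumor. Fn1 was 2.12 times its whole tumor CPM in p110g-/- and 1.44 times in WT, and Thbs1 2.43 times in p110g-/- and 1.77 times in WT. The WT mean of Thbs1 rests on TAM library 1, with 156735 normalized counts against 31137, 26011 and 17953 in libraries 2 to 4. Fn1 in WT TAM ran from 378193 in library 1 to 117321 in library 4. The other 36 members were lower in TAM than in tumor in both genotypes, with a median ratio of 0.0847 in p110g-/- and 0.142 in WT. In bulk RNA such a ratio cannot tell fewer cells of a type from less RNA per cell. The lowest ratios belonged to the same 5 genes in both genotypes, the type I collagen chains Col1a1 and Col1a2, the crosslinking enzymes Lox and Loxl1, and Postn (periostin). Col1a2 stood at 0.0185 in p110g-/- and 0.0331 in WT. Nearest to 1 among the 36 were Tagln, an actin-binding protein of smooth muscle, at 0.610 and 0.703, and the large proteoglycan Vcan (versican) at 0.432 and 0.626, in p110g-/- and WT. Each tissue was normalized in its own table, so these ratios carry no test.

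**Figure D1:**
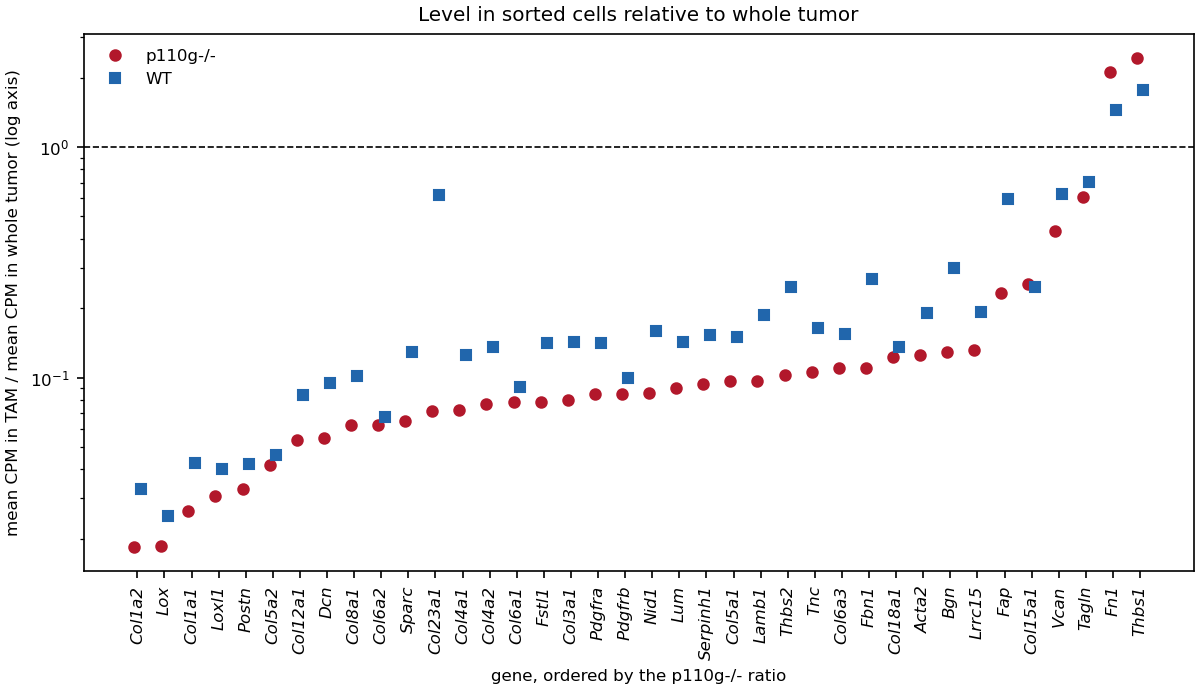
Ratio of the mean CPM in sorted TAM to the mean CPM in whole tumor for each of the 38 genes (log axis), p110g-/- as circles and WT as squares, ordered by the p110g-/- ratio. Fn1 and Thbs1 lie above 1 in both genotypes, and the other 36 lie below it, from 0.0185 to 0.610 in p110g-/- and from 0.0250 to 0.703 in WT. The WT ratio of Thbs1 rests on TAM library 1.

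The 4 TAM libraries of a genotype differed widely in these genes. Over the 38 members, the highest library of a genotype exceeded the lowest by a median of 25.2-fold in p110g-/- TAM and 21.1-fold in WT TAM, on normalized counts plus 1. Over all 12475 genes tested the same median was 1.40 in p110g-/- and 1.44 in WT. Whole tumors were tighter, with member medians of 1.27 in p110g-/- and 1.23 in WT, against 1.15 and 1.11 over all genes tested. The tumor ranges span 3 libraries and the TAM ranges 4, and a range over fewer libraries tends to be smaller. Library 1 was at least 4-fold below libraries 3 and 4 in both genotypes for 31 of the 38 members, against 5.89% of all genes. The 7 without that pattern were Col15a1, Fn1, Thbs1, Loxl1, Acta2, Tagln and Vcan.

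Col3a1 shows the spread at a high level. It had 458, 7161, 34491 and 24310 normalized counts in p110g-/- TAM libraries 1 to 4, against 1859, 22074, 39848 and 43787 in WT TAM libraries 1 to 4. Library 1 was lowest and libraries 3 and 4 highest in both genotypes, and the genotypes overlapped. Fn1, in contrast, had 318628, 279840, 208778 and 219321 normalized counts in p110g-/- TAM, against 378193, 214843, 162354 and 117321 in WT TAM, so that library 1 was the highest of each genotype. The widest spread in p110g-/- TAM was that of Col6a3, a chain of the beaded type VI collagen, at 149.5-fold, and in WT TAM that of Bgn (biglycan) at 71.8-fold.

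**Figure D2:**
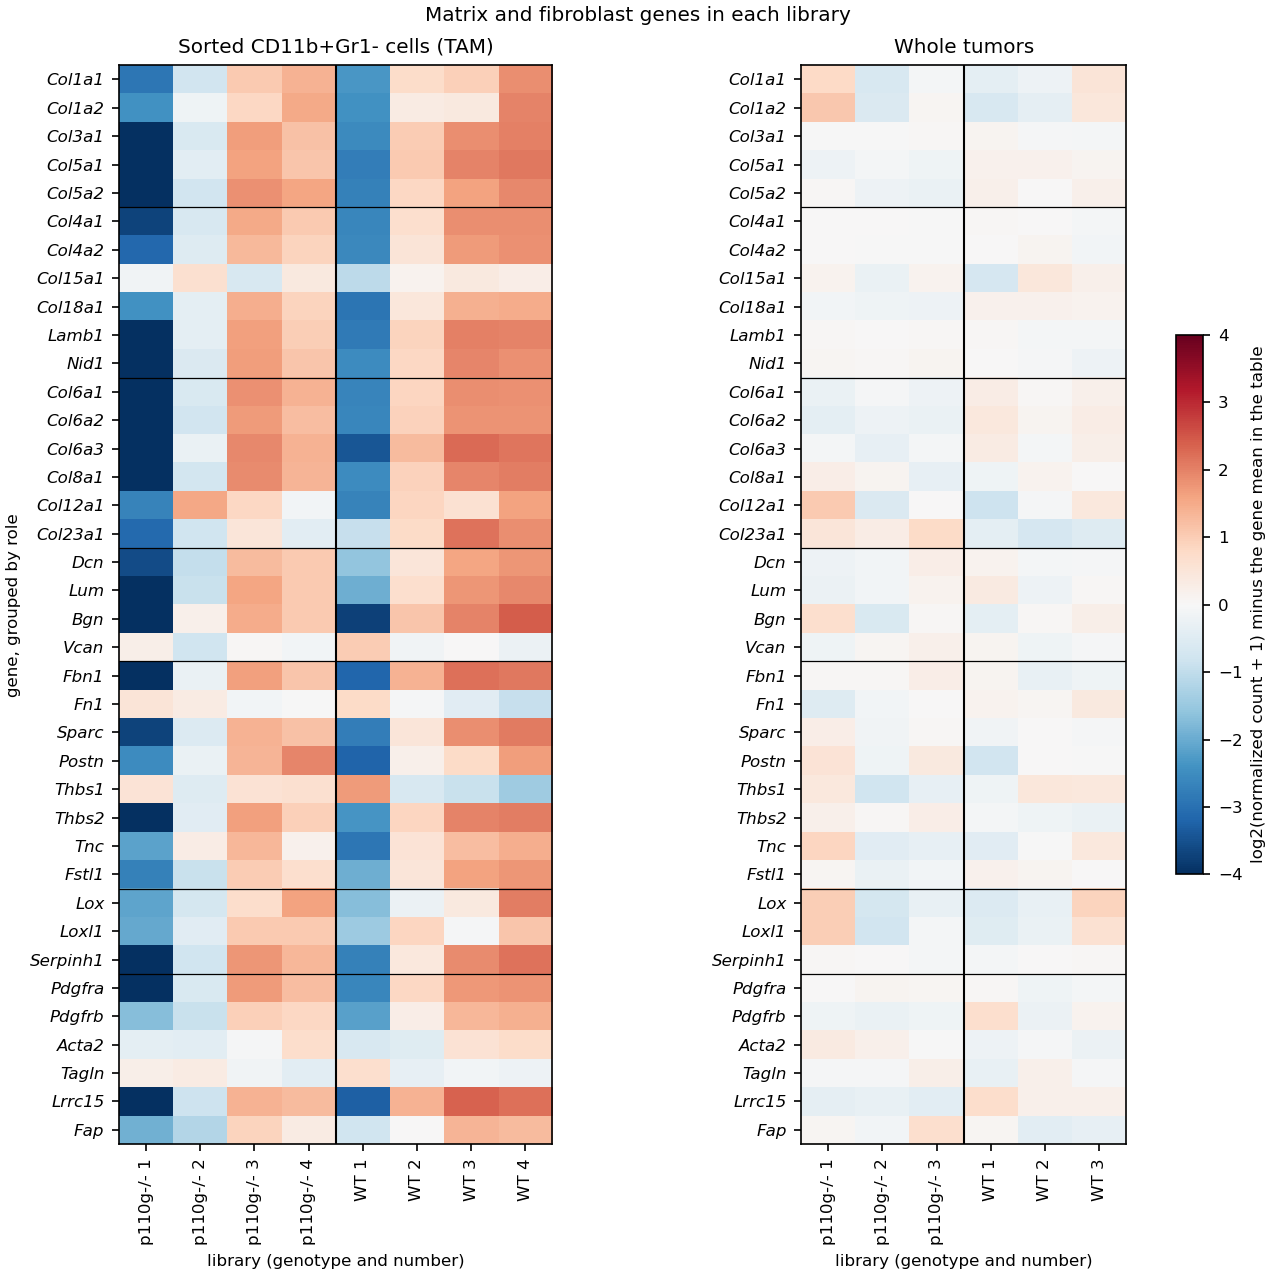
Normalized counts of the 38 genes in the 8 TAM libraries and the 6 whole tumor libraries, as log2(normalized count + 1) minus the gene's mean within its table, with genes grouped by role and colours saturating at 4 log2 units either way. Library 1 of both TAM groups is at least 4-fold below libraries 3 and 4 for 31 of the 38 genes, and the whole tumor libraries vary far less.

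Summed over the 36 members that were lower in TAM than in tumor, p110g-/- TAM libraries 1 to 4 held 256, 697, 2823 and 1856 CPM and WT TAM libraries 1 to 4 held 468, 1778, 3394 and 3521 CPM. Whole tumors held 15398 to 16928 CPM. As a share of the whole tumor level of its genotype, the median member reached 0.349, 4.11, 16.1 and 11.3% in p110g-/- TAM libraries 1 to 4, and 0.970, 10.3, 21.7 and 23.0% in the WT ones. In every same-numbered pair the p110g-/- library had the lower sum. In the pair numbered 1 most of each sum was Vcan, at 6174 normalized counts in p110g-/- TAM and 10695 in WT TAM.

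Some markers of other cells showed the same library pattern. The keratin Krt8, which the LLC tumors expressed at 4539 to 5344 normalized counts with p110g-/- hosts and 7586 to 7911 with WT hosts, had 46, 197, 1569 and 1194 in p110g-/- TAM and 76, 499, 1573 and 1648 in WT TAM. Its partner Krt18 had 47, 232, 1353 and 1056 in p110g-/- TAM, against 90, 500, 1284 and 1325 in WT TAM. Library 1 was at least 4-fold below libraries 3 and 4 in both genotypes for 2 of 5 carcinoma markers (these keratins), for 5 of 12 fibroblast markers outside the set (Twist1, Prrx1, Dpt, Fgf7 and Cxcl12), for 4 of 10 endothelial markers, for 3 of 8 pericyte and smooth muscle markers, and for 0 of 12 macrophage, 0 of 7 T cell, 0 of 3 adipocyte and 0 of 2 skeletal muscle markers. The endothelial gene Pecam1 had 528, 545, 376 and 331 normalized counts in p110g-/- TAM and 482, 176, 217 and 211 in WT TAM, and the epithelial cadherin Cdh1 had 2107, 3774, 1801 and 2294 in p110g-/- TAM and 2453, 1428, 1177 and 1008 in WT TAM. Both were highest in library 1 of the WT TAM. The carcinoma markers summed to 66.3 to 138 CPM in p110g-/- TAM and 72.9 to 122 CPM in WT TAM, and of the remaining 3, Cdh1 stayed between 1008 and 3774 normalized counts, Epcam between 2 and 39 and Perp between 0 and 17. Cdh1 took most of that sum in library 1 of both genotypes. In whole tumors it had only 94 to 227 normalized counts with p110g-/- hosts and 147 to 604 with WT hosts. The sum therefore does not follow the keratins. Endothelial markers summed to 69.6 to 82.8 CPM in p110g-/- TAM and 66.1 to 76.9 CPM in WT TAM, and Tek and Robo4 were at 0 in some libraries. Most of that sum was Eng, at 1553 to 2012 normalized counts in p110g-/- TAM and 1426 to 1772 in WT TAM. Pericyte and smooth muscle markers summed to 56.8 to 91.4 CPM in p110g-/- TAM and 13.3 to 106 CPM in WT TAM, most of it Cspg4. The part of these cells, and of the mitochondrial share that also differed between the libraries, in the matrix values was not tested.

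**Figure D3:**
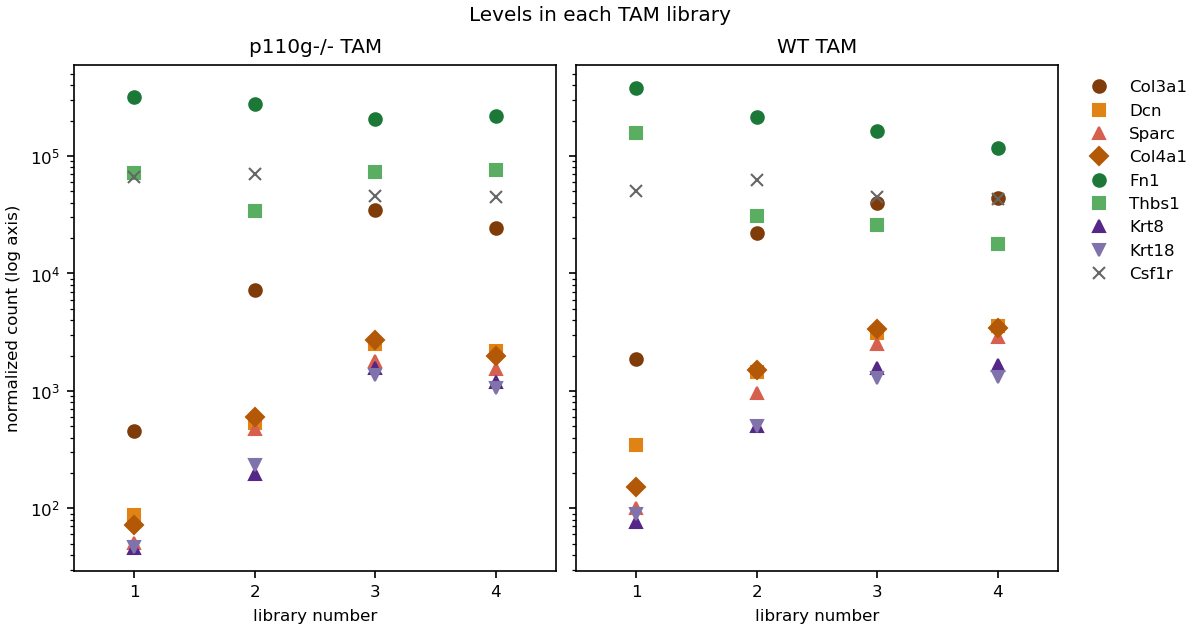
Normalized counts (log axis) of 6 matrix genes, the keratins Krt8 and Krt18 and the macrophage gene Csf1r in TAM libraries 1 to 4, p110g-/- on the left and WT on the right. Col3a1, Dcn, Sparc, Col4a1 and the keratins are lowest in library 1 and far higher in libraries 3 and 4 of both genotypes, while Fn1 is highest in library 1 and Csf1r stays between 43116 and 70505.

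Against WT TAM, p110g-/- TAM had lower values of most matrix genes, but the spread between libraries exceeded the difference. The median member had a log2 fold change of -0.88, against -0.01 over all 12475 genes tested, and 34 of 38 members were below 0, against 53.2% of all genes. Without p110g-/- library 1 the members' median was 0.23. In the fit that takes the libraries of a genotype as plain replicates, limma called 0 members lower and 0 higher at an adjusted p below 0.05, where it called 0.0401% of all genes lower and 0.0721% higher, 0.112% in all. None of the members had an unadjusted p below 0.05 either, against 5.87% of all genes, and the smallest was 0.0729, for Col23a1. The median standard error of a member was 1.24 log2 units, against 0.16 for all genes.

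Same-numbered libraries of the genotypes varied together across all genes, and with the library number as a block, which compares p110g-/- and WT within each number, limma called 9 members lower and 0 higher in p110g-/- TAM. Over all genes that fit called 1.49% lower and 1.01% higher. A count over pairs fits no model but rests on the same pairing, which was taken from these values and not from labels. By that count 22 of 38 members were lower in p110g-/- TAM in all 4 same-numbered pairs, against 15.3% of all genes. In turn, 0 were higher in all 4, against 11.2%. Most members moved together across the libraries, so the 22 are not separate observations. No member separated the groups with all p110g-/- libraries below all WT libraries, which 1.93% of all genes did, or with all of them above, which 2.37% did.

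Of the fibrillar collagens, all 5 had a log2 fold change below 0 in the TAM and none passed the blocked fit. Col5a1, which nucleates fibrils, had 24, 463, 1932 and 1347 normalized counts in p110g-/- TAM, against 92, 1286, 2472 and 2712 in WT TAM, a log2 fold change of -1.18 with a block limma adjusted p of 0.0580. Col3a1 followed at -1.18 (block limma adjusted p = 0.0881), and each was lower in p110g-/- in all 4 pairs. The type I chains differed less, at -0.60 for Col1a1 and -0.13 for Col1a2.

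Of the 6 basement membrane genes, 3 fell in the blocked fit. Col4a1 had 72, 601, 2687 and 1963 normalized counts in p110g-/- TAM, against 152, 1507, 3386 and 3439 in WT TAM (log2 fold change -0.88, SE 0.16, block limma adjusted p = 0.0415). Its promoter neighbour Col4a2 had 61, 376, 1335 and 1002 normalized counts, against 90, 775, 1756 and 1904 in WT TAM (-0.73, SE 0.13, block limma adjusted p = 0.0408). The chains thus kept the same order of libraries in p110g-/- TAM, where library 3 was the highest for 26 of 38 members, against 24% of all genes. For both chains, each p110g-/- library was below the WT library of its number. Lamb1, the beta 1 chain of laminin, had 67, 1041, 4250 and 2701 normalized counts in p110g-/- TAM, against 190, 2552, 5523 and 5452 in WT TAM (-1.04, SE 0.17, block limma adjusted p = 0.0338). Nid1, the nidogen that links laminin to type IV collagen, was also lower in all 4 pairs (-1.04, block limma adjusted p = 0.0802). Col15a1 and Col18a1, collagens of the basement membrane zone, had log2 fold changes of 0.13 and -0.22, and neither passed.

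Among the other collagens, Col23a1 had the largest fold change in the set. It had 1, 9, 23 and 12 normalized counts in p110g-/- TAM, against 8, 28, 76 and 61 in WT TAM, and passed the blocked fit at a log2 fold change of -1.91 (SE 0.29, block limma adjusted p = 0.0235). Its p110g-/- library 1 value lies under the 2.496 normalized counts that 3 reads give in that library, so the fold of that pair depends on the pseudocount of 1. The type VI chains Col6a1, Col6a2 and Col6a3 and Col8a1, a short-chain collagen of vessel walls, were lower in all 4 pairs, with log2 fold changes between -0.95 and -1.19, and did not pass. Col12a1, a collagen on the surface of fibrils, was at -0.20 with 4 to 97 normalized counts.

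Of the proteoglycans, biglycan fell in the blocked fit. Bgn had 7, 212, 518 and 380 normalized counts in p110g-/- TAM, against 13, 403, 732 and 1004 in WT TAM (-0.91, SE 0.17, block limma adjusted p = 0.0482). Dcn and Lum, encoding the fibril-binding decorin and lumican, were lower in all 4 pairs at -1.11 and -1.20, with block limma adjusted p-values of 0.0851 and 0.102. Lum had 45, 447, 2466 and 1694 normalized counts in p110g-/- TAM, against 213, 1297, 2793 and 3117 in WT TAM. Vcan had a log2 fold change of -0.32 and was lower in 2 of 4 pairs.

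Of the 8 matrix glycoproteins, 3 fell and none rose in the blocked fit. Sparc, a collagen-binding protein secreted during tissue remodelling, had 51, 470, 1802 and 1538 normalized counts in p110g-/- TAM, against 100, 966, 2508 and 2879 in WT TAM, and had the smallest adjusted p of the set (-0.84, SE 0.11, block limma adjusted p = 0.0149). Fstl1, a secreted follistatin-like protein, had 121, 424, 1613 and 1256, against 202, 1119, 2436 and 2678 in WT TAM (-0.95, SE 0.14, block limma adjusted p = 0.0216). Both were lower in p110g-/- in each of the 4 pairs. Fbn1, the fibrillin of elastic microfibrils, had 18, 507, 1892 and 1327, against 66, 1611, 2783 and 2636 in WT TAM (-1.26, SE 0.21, block limma adjusted p = 0.0353). Thbs2, an inhibitor of vessel growth, had 40, 780, 3337 and 2033 normalized counts in p110g-/- TAM, against 207, 1926, 4228 and 4374 in WT TAM (-1.27, block limma adjusted p = 0.0801). Postn and Tnc, the matricellular proteins periostin and tenascin C, were at 0.28 and -0.18 and did not pass.

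The genes whose mean in the sorted cells stood above tumor level had log2 fold changes above 0. Fn1 had a log2 fold change of 0.35 and was higher in 3 of 4 pairs (block limma adjusted p = 0.396). Thbs1 had 71349, 33982, 72866 and 75811 normalized counts in p110g-/- TAM, against 156735, 31137, 26011 and 17953 in WT TAM. Its WT library 1 was above every other TAM library and its remaining WT libraries were below every p110g-/- library, and its log2 fold change was 0.64 (block limma adjusted p = 0.539). In libraries 3 and 4 alone, limma called both higher in p110g-/- TAM, Fn1 at 0.63 (adjusted p = 0.0445) and Thbs1 at 1.78 (adjusted p = 0.000267), and called 12 members lower, in a fit that called 5.21% of all genes lower and 6.1% higher (1428 genes). That fit had only 2 libraries per group. Its p-values stand against the spread between libraries 3 and 4, which were alike across genes. With all TAM libraries and no block, limma called 14 genes, and Fn1 and Thbs1 had limma adjusted p-values of 0.999. In libraries 1 and 2 alone Thbs1 was at -0.50 and Fn1 at 0.07, and limma called 0 members and 0 of all genes.

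None of the crosslinking and folding genes passed. Serpinh1 was lower in all 4 pairs (-0.89, block limma adjusted p = 0.0781). Loxl1 had 1, 5, 16 and 16 normalized counts in p110g-/- TAM, against 2, 14, 7 and 17 in WT TAM, and Lox 2 to 39 against 3 to 53, too close to the few reads that such values stand for to be read further. Of the 6 fibroblast and mural genes, Lrrc15, a marker of TGF-beta-driven tumor fibroblasts, fell. It had 4, 64, 298 and 271 normalized counts in p110g-/- TAM, against 11, 296, 587 and 520 in WT TAM (-1.34, SE 0.24, block limma adjusted p = 0.0427). The platelet-derived growth factor receptor Pdgfra, found on fibroblasts, and the protease Fap (fibroblast activation protein) were lower in all 4 pairs at -0.88 and -0.93, and the contractile genes Acta2 and Tagln were at -0.08 and -0.01. Pdgfrb was at -0.42 and lower in 3 of 4 pairs.

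The number of blocked calls varied with the libraries left out, in the members and over all genes. With all libraries the blocked fit called 312 genes. Without both libraries numbered 1 it called 11 members lower and 611 genes in all, and without those numbered 3 it called 6 members lower, 4 of them among the 9, and 91 genes. Without both numbered 2 it called 0 members and 78 genes, and without both numbered 4, 0 members and 98 genes. The 9 genes were lower in p110g-/- TAM in all 4 pairs, so leaving out a pair could not bring them above 0. Without number 2, Sparc was at -0.78, Fstl1 at -0.81, Lamb1 at -0.96, Fbn1 at -1.12 and Col23a1 at -2.04. The keratins also had log2 fold changes below 0 in the TAM, at -0.63 for Krt8 (block limma adjusted p = 0.172) and -0.57 for Krt18 (block limma adjusted p = 0.204). Their part in the matrix result was not tested.

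**Figure D4:**
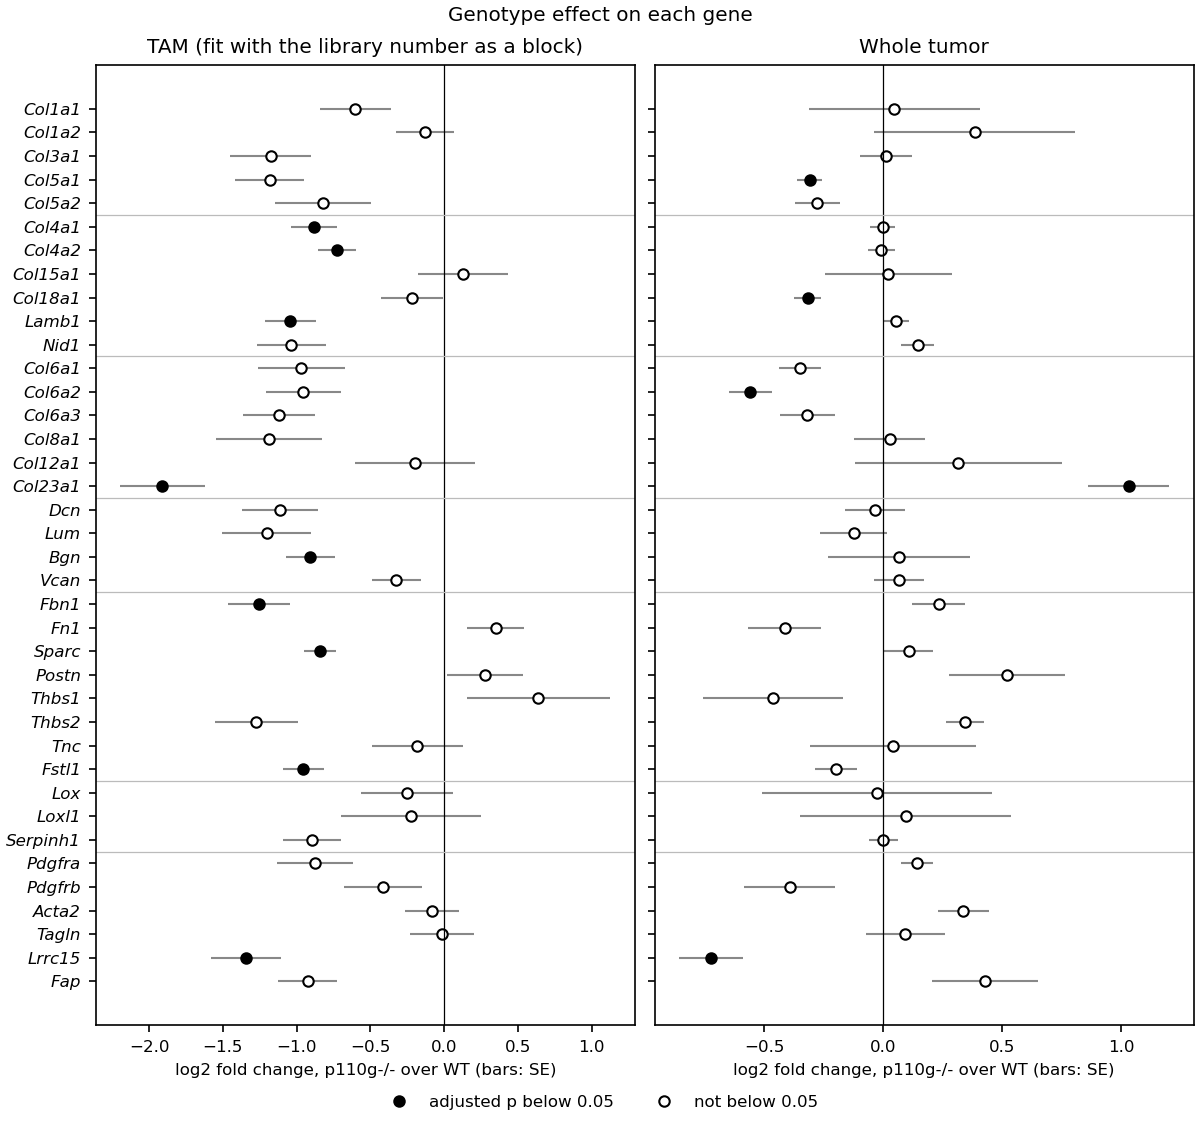
Log2 fold change of p110g-/- over WT with its standard error for the 38 genes, in TAM from the fit with the library number as a block (left) and in whole tumors (right), grouped by role with filled points for adjusted p below 0.05. In TAM 9 genes are filled, all below 0, and in whole tumors 5 are filled, 4 below 0 and Col23a1 above 0.

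In whole tumors single collagens differed between the genotypes while the median of the set lay near 0. The median member had a log2 fold change of 0.02, against 0.01 over all 12717 genes tested. With p110g-/- hosts 4 members fell and 1 rose, against 2.1% of all genes called lower and 2.25% called higher, 4.35% in all. Of the 38, 16 had a log2 fold change below 0, against 48.4% of all genes. With the library number as a block 5 fell and 1 rose, against 2.52% and 3.45% of all genes. Same-numbered tumors were little more alike than others, so that pairing has little ground in these values. Among the members, 11 had an unadjusted p below 0.05, against 26.2% of all genes. All p110g-/- values lay below all WT values for 6 members, against 15.4% of all genes, and above them for 4, against 15.7%.

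The type VI collagen chains shared a direction. Col6a2 had 13716, 15608 and 15067 normalized counts in p110g-/- tumors, against 23982, 19354 and 22249 in WT tumors (log2 fold change -0.56, SE 0.09, limma adjusted p = 0.0251). Its neighbour Col6a1 had 21533, 25027 and 22838, against 31930, 26683 and 29890 in WT tumors, without overlap and without passing (-0.35, limma adjusted p = 0.0639). Col6a3 had 9636, 8081 and 9714, against 12848, 9599 and 11898 in WT tumors (-0.32, limma adjusted p = 0.142), and was called lower with the library number as a block (block limma adjusted p = 0.0360). The chains assemble into a single type VI molecule, and Col6a2 alone of them passed both fits. Col8a1 and Col12a1 were at 0.03 and 0.31 and did not pass.

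Of the fibrillar collagens, Col5a1 fell to 6932, 7629 and 7098 normalized counts in p110g-/- tumors, against 8991, 9104 and 8734 in WT tumors (-0.31, SE 0.05, limma adjusted p = 0.0280). Its partner chain Col5a2 had a log2 fold change of -0.28 and did not pass (limma adjusted p = 0.121). Col3a1 had 152150, 153016 and 158752 normalized counts in p110g-/- tumors, against 167923, 148300 and 144900 in WT tumors, a log2 fold change of 0.01, and the type I chains Col1a1 and Col1a2 were at 0.05 and 0.38. Of the basement membrane genes, Col18a1, whose C-terminal fragment is endostatin, fell to 25397, 24415 and 24035, against 30811, 31025 and 30143 in WT tumors (-0.32, SE 0.06, limma adjusted p = 0.0293). The type IV chains Col4a1 and Col4a2 were nearly level, at 0.00 and -0.01, with standard errors of 0.05 and 0.06. Lamb1, Nid1 and Col15a1 were at 0.05, 0.14 and 0.02, and did not pass, though the p110g-/- values of Nid1 lay above all its WT values.

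Col23a1 was the member that rose. It had 114, 99 and 140 normalized counts in p110g-/- tumors, against 62, 51 and 57 in WT tumors (1.03, SE 0.17, limma adjusted p = 0.0273). Thbs2 had 11454, 10211 and 12071, against 9503, 8892 and 8203 in WT tumors, without overlap, and lay just outside the threshold (0.34, limma adjusted p = 0.0552). Acta2, the smooth muscle actin of contractile fibroblasts, had 717, 642 and 551, against 486, 542 and 477 in WT tumors (0.34, limma adjusted p = 0.105). The values of these genes were low in the first case and moderate in the others, and none overlapped between the genotypes.

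Lrrc15 fell to 888, 937 and 845 normalized counts in p110g-/- tumors, against 1860, 1309 and 1303 in WT tumors (-0.72, SE 0.13, limma adjusted p = 0.0319). The WT libraries were all higher, 1 of them well above the other 2. No other fibroblast or mural gene passed, with log2 fold changes of 0.14 for Pdgfra, 0.43 for Fap, -0.39 for Pdgfrb, the platelet-derived growth factor receptor of mural cells, and 0.09 for Tagln. Fn1 had 74287, 97272 and 105467 normalized counts in p110g-/- tumors, against 117081, 111762 and 137760 in WT tumors, without overlap but short of the threshold (-0.41, limma adjusted p = 0.143). The proteoglycan Lum had 8571, 9352 and 10912, against 12719, 8697 and 10236 in WT tumors (-0.12), and its group held no call. Dcn, Bgn and Vcan were at -0.03, 0.07 and 0.07. Loxl1 had 394, 117 and 186, against 141, 165 and 303 in WT tumors (0.09), with overlapping groups, and Lox and Serpinh1 were at -0.03 and 0.00. Of the glycoproteins, Fbn1, Sparc, Postn and Tnc were at 0.23, 0.11, 0.52 and 0.04 and Fstl1 and Thbs1 at -0.20 and -0.46, none past the threshold.

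**Figure D5:**
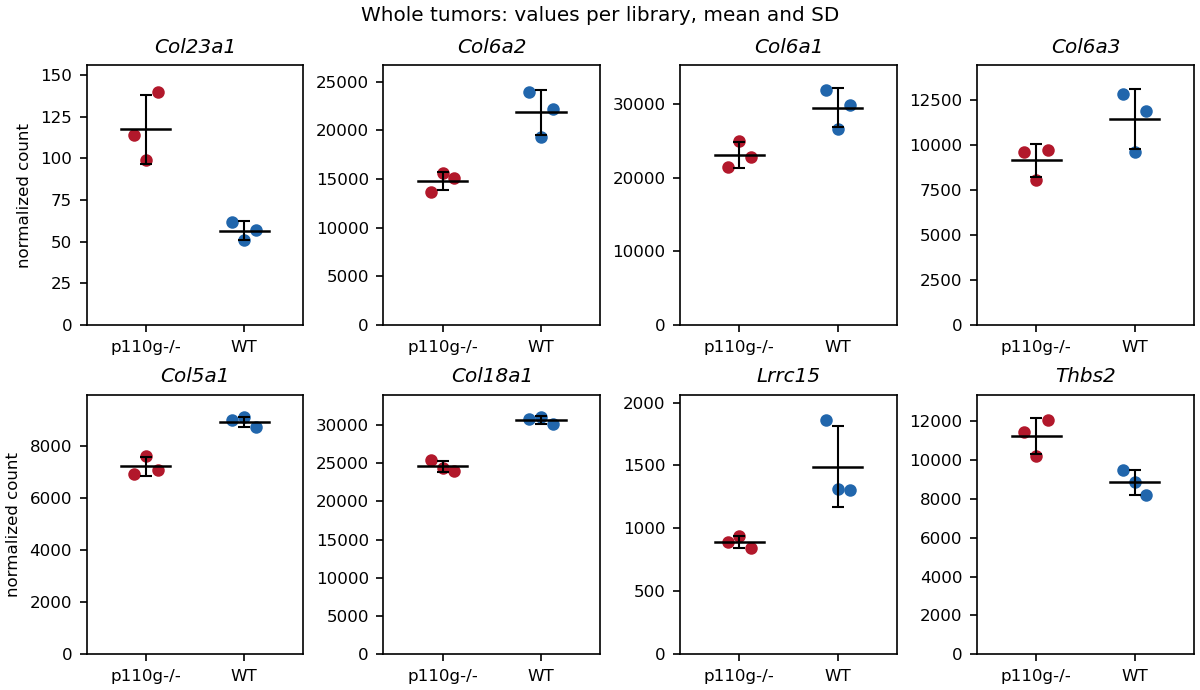
Normalized counts of 8 genes in the p110g-/- tumors (left in each panel) and the WT tumors (right), with points for libraries, a line for the mean and bars for the SD (n = 3 each). Col23a1 and Thbs2 are higher and Col6a2, Col6a1, Col5a1, Col18a1 and Lrrc15 lower in every p110g-/- library than in any WT library, while Col6a3 overlaps.

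The number of whole tumor calls varied with the library left out, in the members and over all genes. Without p110g-/- library 1, limma called 7 members lower and 2 higher and 2001 genes in all, against 553 with all libraries. Without WT library 1 it called only Lrrc15 among the members, and 86 genes. Without any 1 of the other 4 libraries it called 0 members and 29 to 155 genes. The directions of the 5 genes could not change in these fits, since their genotypes did not overlap in any library. Their log2 fold changes ran from -0.34 to -0.30 for Col18a1, -0.35 to -0.28 for Col5a1, -0.64 to -0.49 for Col6a2, -0.81 to -0.55 for Lrrc15 and 0.90 to 1.15 for Col23a1. Under quantile normalization Col6a2 (limma adjusted p = 0.0527) and Col18a1 (log2 fold change -0.20, limma adjusted p = 0.0772) were not called and Thbs2 was (limma adjusted p = 0.0319), and a fit of all 14 libraries called 0 members. Type I collagen and its crosslinking enzymes varied by library instead, as was seen after their values were known. p110g-/- library 1 and WT library 3 were each the highest of their group for 8 members, Col1a1, Col1a2, Col12a1, Bgn, Lox, Loxl1, Tnc and Serpinh1, against 12.5% of all genes. Col1a1 had 15196, 5693 and 8366 normalized counts in p110g-/- tumors, against 6766, 7622 and 12766 in WT tumors, and Lox had 1171, 365 and 485, against 409, 485 and 1105 in WT tumors.

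Other cells also differed between the tumors. Krt8 averaged 5003 ± 416 normalized counts in p110g-/- tumors and 7717 ± 171 in WT tumors (SD, n = 3 each; log2 fold change -0.63, limma adjusted p = 0.00818), and Krt18 4817 ± 244 and 6561 ± 373 (SD, n = 3 each; -0.45, limma adjusted p = 0.0164). The carcinoma markers summed to 358 to 401 CPM in p110g-/- tumors and 512 to 546 CPM in WT tumors, and 2 of 3 tested were called lower. T cell markers summed to 19.7 to 25.9 CPM in p110g-/- tumors and 4.40 to 11.2 CPM in WT tumors, and 4 of 7 were called higher. Endothelial markers summed to 133 to 150 CPM and 101 to 131 CPM in p110g-/- and WT tumors, with 10 of 10 above 0 in log2 fold change, a median of 0.60 and none called. Macrophage markers summed to 5740 to 9122 CPM in p110g-/- tumors and 6195 to 7590 CPM in WT tumors, with none of 12 called. Of 12 fibroblast markers outside the set, none was called. Their summed level was mostly S100a4 and Gsn, both also high in the TAM: S100a4 had 39250 to 39466 normalized counts in p110g-/- tumors and 44224 to 45593 in WT tumors, against 36745 to 56215 in TAM. The part of these cells in the collagen results was not tested.

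The genotype effect in TAM was set against that in whole tumor in 1 fit over the 14 libraries, with a negative difference where TAM had the lower effect. Taken as plain replicates the libraries gave 0 members lower and 0 higher, where 0.101% of all 12821 genes were lower and 0.039% higher, 0.14% in all. With table and library number as a block, 4 members were lower and 0 higher, against 2.18% of all genes lower and 0.429% higher. For the tumors that block rests on a pairing that the correlations between libraries hardly bear out. Col23a1 led with a difference of -2.94 log2 units (SE 0.31, block limma adjusted p = 0.00187), being lower in p110g-/- TAM and higher in p110g-/- tumors. Its TAM level was 0.0720 of the tumor level in p110g-/- and 0.622 in WT. Fbn1 followed at -1.49 (block limma adjusted p = 0.0352), Lamb1 at -1.10 (block limma adjusted p = 0.0444) and Sparc at -0.95 (block limma adjusted p = 0.0214), genes that fell in the blocked TAM fit and were not called in the tumors. Lrrc15, which fell in the tumors and in the blocked TAM fit, had a difference of -0.62 that did not pass (block limma adjusted p = 0.329).

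Genes around the set were followed in further lists. Over all genes, limma called 2.1% lower and 2.25% higher in p110g-/- tumors, and the blocked TAM fit called 1.49% lower and 1.01% higher. The list counts are small, and no list is read as differing from those shares. Of 23 measured genes of collagen biosynthesis, 1 was called higher in p110g-/- tumors, the procollagen protease Adamts14 (0.23, limma adjusted p = 0.0455), and none in TAM in either fit. Of 41 other matrix proteins, 2 rose in p110g-/- tumors. Efemp1 (fibulin 3) had 548, 306 and 581 normalized counts, against 212, 145 and 194 in WT tumors (1.34, limma adjusted p = 0.0334), and Col4a5 had 20, 30 and 45, against 6, 9 and 11 in WT tumors (1.72, limma adjusted p = 0.0455). In the blocked TAM fit 3 of 38 tested fell, Agrn, Lama4 and Cthrc1, and none rose. Of 13 matrix receptors, 2 fell and 2 rose in p110g-/- tumors. The collagen receptor of epithelial cells Ddr1 was at -0.41 (limma adjusted p = 0.0227) and the integrin chain Itgb5 at -0.43 (limma adjusted p = 0.0280), while Mrc2, which takes up collagen for degradation, was at 1.01 (limma adjusted p = 0.0280) and the collagen receptor of mesenchymal cells Ddr2 at 0.22 (limma adjusted p = 0.0413). Ddr2 was not called with the block (block limma adjusted p = 0.0580). In the blocked TAM fit the syndecan Sdc4 was the 1 receptor called, higher at 0.34 (block limma adjusted p = 0.0476). Adamts14, Col4a5, Agrn, Lama4, Cthrc1 and Sdc4 were named after their values were seen.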

How the data were processed

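RNA was sequenced from 8 TAM libraries (4 p110g-/-, 4 WT) and 6 whole tumor libraries (3 p110g-/-, 3 WT), grouped by GEO's labels. Bowtie2, DESeq and the mouse build mm9 are named in the submitters' processing notes, without versions, roles or order, and these sources do not give how reads were counted and scaled, or on which annotation. Each value the authors deposited is a score, a whole number that, judging from the values, came from scaling a library's gene counts by 1 factor and rounding, called a normalized count in the text. The scores are not raw counts, so no count model was fitted.

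Values were tested as log2(value + 1) with limma 3.58.1 (lmFit, eBayes with trend, two-sided) in R 4.3.3 within each table, keeping genes with at least 10 normalized counts in as many libraries as the smaller group, with Benjamini-Hochberg adjustment over all genes kept and a threshold of 0.05. All 38 members passed that filter. Fold changes of low genes are understated on this scale. Same-numbered libraries were taken as pairs because the deviations of p110g-/- and WT libraries of a number correlated across genes at 0.826, 0.559, 0.790 and 0.671 in TAM and at 0.117, 0.122 and 0.181 in whole tumors. The labels do not say what the numbers stand for, and in TAM libraries 3 and 4 also correlated across numbers (0.747 and 0.697). In whole tumors, libraries of different numbers correlated as much. The values were 0.142 for p110g-/- library 2 with WT library 1 and 0.143 for p110g-/- library 3 with WT library 2. The tumor values thus give little ground for pairing by number, and blocked tumor calls are limited by that. CPM were taken on the column total, and lengths from GENCODE M21 (GRCm38). Promoters are RefSeq's (GRCm38.p6), with 26 of 39 members matched. Read depth was estimated from the steps between low values and put 3 reads at 1.79 to 5.81 normalized counts, which covers counting error alone. Both the fits and the depth estimate were tested on simulated data. With a shift shared by same-numbered TAM libraries, the TAM fit without a block recovered 0% of changes of 1 log2 unit. It recovered 66% of changes of 2 log2 units. The blocked TAM fit and both whole tumor fits recovered 100% of each size. A count of 0 members in the TAM fit without a block therefore does not show that they were unchanged. The shift was planted by library number in TAM alone, so the gain from the block was built in. The simulated spread was not matched to the members. Their median standard error in the real blocked TAM fit was 0.24 log2 units, against 0.09 for all genes. The 100% therefore does not carry over to them. The depth step came within 1% in 14 of 14 libraries.

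The members, lists and tests were chosen with earlier results of these data known. All members could be named, with values in every library for those called in a fit, the 3 highest of each table and 1 leading member per role; of other lists the 5 smallest p-values per comparison could be named. Alternatives were other pseudocounts, filters, scalings, library weights, blocks and left-out libraries. The deposited column of values from 0 to 1 per gene was not used.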

Additional observations from a re-analysis of the deposited data

Results flagged for a closer look

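Thbs1 stood apart in libraries of both genotypes of the sorted cells. Its lowest p110g-/- TAM library, library 2, had 33982 normalized counts, while the remaining 3 had 71349 to 75811, and its highest WT TAM library, library 1, had 156735 while the others had 17953 to 31137. Vcan had 10695 normalized counts in WT TAM library 1, against 4482 to 5290 in the other WT TAM libraries. These are 3 outlying values in 76 groups of 4 libraries, and chance gives about 1 in 20 groups.

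The genotype effect differed between TAM and whole tumor, with table and library number as a block, for Col23a1 (-2.94 log2 units, TAM minus whole tumor), Fbn1 (-1.49), Lamb1 (-1.10) and Sparc (-0.95). Without the block none of the 4 passed, at limma adjusted p-values of 0.594 for Col23a1 and 0.999 for the others.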

How the results depend on the processing

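In TAM, 0 members were called lower and 0 higher without a block. With the replicate block limma called 9 lower and 0 higher, with sample quality weights 1 lower and 1 higher, and in libraries 3 and 4 alone 12 lower and 2 higher. Chosen after seeing the data, the block without libraries numbered 1 gave 11 lower and without those numbered 3 gave 6. In whole tumors, 4 lower and 1 higher became 5 and 1 with the block, 2 and 2 under quantile normalization, 7 and 2 with weights (median log2 fold change of the members -0.0567), and 0 and 0 in a fit of all 14 libraries. For the difference between tissues, 0 lower and 0 higher became 4 lower with the block, and 2 lower and 2 higher with weights. The causes were not tested. The pairing by number changed no other call of a member in these comparisons.

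Leaving out 1 library at a time, TAM calls stayed at 0 lower and 0 higher and the members' median ran from -1.84 to 0.23, above 0 without p110g-/- library 1. For single genes in TAM it ran from -2.30 to 0.45 for Bgn, -2.22 to 0.15 for Col3a1, -1.91 to 0.20 for Col4a1, -1.71 to 0.19 for Col4a2, -2.53 to 0.20 for Fbn1, -2.16 to 0.22 for Lamb1 and -1.91 to 0.25 for Sparc, and stayed below 0 for Lrrc15 (-2.65 to -0.06), Fstl1 (-1.77 to -0.21) and Col23a1 (-2.54 to -1.19). For the difference the median ran from -1.68 to 0.22, Lamb1 from -2.22 to 0.17, Sparc from -2.01 to 0.15, Fbn1 from -2.76 to -0.03 and Col23a1 from -3.57 to -2.22, with 0 lower and 0 higher throughout. In whole tumors the calls ran from 0 to 7 lower and 0 to 2 higher and the median from -0.0547 to 0.0507. Where a group was left with fewer libraries, limma pooled the spread over the groups. In libraries 1 and 2 alone Thbs1 was at -0.50, and in libraries 3 and 4 alone Vcan was at 0.0796. Over all genes, TAM calls were 14, and 9 at a minimum of 50 (which left Col23a1, Lox and Loxl1 untested), 6 under quantile normalization, 999 with weights, 312 with the block, 88 in a fit of all 14 libraries and 1428 in libraries 3 and 4 alone. Tumor calls were 553, and 2308 with weights and 15 in a fit of all 14 libraries. Difference calls were 18, and 1892 with weights and 335 with the block. Depth limits Col23a1, Lox and Loxl1 in TAM, where values fall to or below the level of 3 reads.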
